A study of Mus musculus with 6 samples.

Results

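Transcripts of 9 genes of the major histocompatibility complex (MHC) were followed in mouse liver, 3 of class I (H2-K1, H2-D1 and B2m) and 6 of class II (H2-Aa, H2-Ab1, H2-Eb1, H2-DMa, Cd74 and Ciita). They were taken by name from a table of 24341 genes, and all 9 were found there. Of the 9, 8 passed the filter for testing, which asked for at least 1 FPKM in at least 3 of the 6 libraries and left 10963 genes. FPKM stands for fragments per kilobase of transcript, scaled to the size of the library. Ciita did not pass, so its values are given without a test.

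Both groups were C57BL/6 mice on regular chow. The 3 controls were Prkciflox/flox, with loxP sites in the Prkci gene for an atypical protein kinase C. The 3 others were Prkciflox/floxAlbCre, which adds Cre recombinase under the albumin promoter, active in hepatocytes. Mice were 30 weeks old by the sample labels but 28 weeks old by the design text. Whether the 6 samples are separate animals is not stated, and p-values cover the spread between samples, which may be technical. A sample is called a liver here for short.

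For Prkci, control replicates 1, 2 and 3 gave 5.57, 3.65 and 4.44 FPKM, and livers labelled knockout 5.70, 5.26 and 4.42 FPKM. Its log2 change was 0.15 (SE 0.17, adjusted p = 0.813 in limma, Benjamini-Hochberg). Prkci was thus not lower in the livers labelled knockout and does not check the labels, and that group is named by its label throughout. Cells other than hepatocytes keep Prkci in this model, and which exons are floxed is not given here. Read totals, estimated from the steps between low values, ran from 14790000 to 17620000, and depth did not separate the groups. Of 9 hepatocyte markers in the table, 8 had a mean of at least 1 FPKM, and every library listed Alb at 0, so a 0 in this table can be a failed estimate.

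Class I molecules sit on nearly all nucleated cells and show peptides made in the cytosol to CD8+ T cells. Each holds a heavy chain, such as those encoded by H2-K1 and H2-D1, and the light chain beta-2-microglobulin from B2m. Class II molecules are pairs of an alpha and a beta chain that show peptides from endosomes to CD4+ T cells, and are made mainly by macrophages, dendritic cells and B cells. In liver these include Kupffer cells, the resident macrophages. The invariant chain Cd74 guides class II chains to endosomes, H2-DM loads their peptides, and Ciita is the master regulator of their transcription.

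In short, H2-D1 was higher in each liver labelled knockout than in each control, at 1.50 times the control mean, and did not pass the test over all genes. The groups parted in this direction for 10.7% of all tested genes. Class II genes had higher means in the livers labelled knockout, with wide overlap. They varied together between single livers over a range larger than the difference between the groups. In whole liver, fewer cells of a type and less RNA per cell cannot be told apart. Of the 8 tested genes, 0 passed an adjusted p of 0.05 (limma, Benjamini-Hochberg), where 0.0274% of all tested genes passed (0.00912% higher, 0.0182% lower). At an unadjusted p under 0.05, 1 gene was higher (H2-D1) and 0 were lower, against 6.34% higher, 3.59% lower and 9.93% in either direction among all tested genes. With sample quality weights in limma H2-D1 was the 1 gene of the 8 that passed (adjusted p = 0.0363), where 4.9% of all tested genes (537) passed. Of all tested genes 56.1% had a higher mean log2 level in the livers labelled knockout, which is the background for the counts of higher and lower means given here.

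Among the class I genes, B2m had the highest level per length in all 6 livers, followed by H2-K1 and then H2-D1, and their ranges over the livers did not overlap. H2-D1, a classical heavy chain, measured 301, 272 and 317 FPKM in the 3 controls, by replicate number. In the livers labelled knockout it measured 448, 409.9 and 479.8 FPKM. Its lowest value there lay above the highest control, and the spread within a group was small. The group means were 297 ± 22.8 and 446 ± 35.0 FPKM (SD, n = 3 samples each). On the log2(FPKM + 1) scale the change was 0.58 (SE 0.14, 95% interval 0.25 to 0.92, limma unadjusted p = 0.00501, adjusted p = 0.350).

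The groups did not overlap, with the livers labelled knockout higher, for 10.7% of all tested genes, and for 1 of the 3 class I and 0 of the 5 tested class II genes. Within each replicate number, H2-D1 in the liver labelled knockout was 1.49, 1.51 and 1.51 times its control. These were the most even ratios of the 9 genes. A limma fit with a block for the replicate number gave H2-D1 an adjusted p of 0.211.

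H2-K1, the other classical heavy chain, measured 851, 888 and 1038 FPKM (controls) against 1035, 991 and 1287 FPKM (labelled knockout). Control replicate 3 lay above 2 livers of the other group, so values overlapped. The means were 926 ± 99.4 and 1104 ± 159 FPKM, a log2 change of 0.25 (SE 0.18, 95% interval -0.19 to 0.69, limma adjusted p = 0.689). Within the replicate numbers the ratios were 1.22, 1.12 and 1.24, higher in each.

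B2m measured 1965, 2054 and 1944 FPKM (controls) against 2185, 1351 and 1839 FPKM (labelled knockout). The controls lay close together, while the livers labelled knockout lay on both sides of them. The log2 change was -0.18 (SE 0.23, 95% interval -0.72 to 0.36, limma adjusted p = 0.839). It turned to 0.012 without knockout replicate 2.

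The 3 ratios between class I transcripts varied by 1.42 to 2.29 times over the 6 livers. H2-D1 per B2m was 0.153, 0.133 and 0.163 in the controls and 0.205, 0.303 and 0.261 in the livers labelled knockout, with no overlap. H2-K1 per H2-D1 was 2.82, 3.26 and 3.27 against 2.31, 2.42 and 2.68, lower in each liver labelled knockout. H2-K1 per B2m overlapped. No test was run on ratios, since the smallest p of an exact permutation test (two-sided) at 3 against 3 is 0.1.

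**Figure D1:**
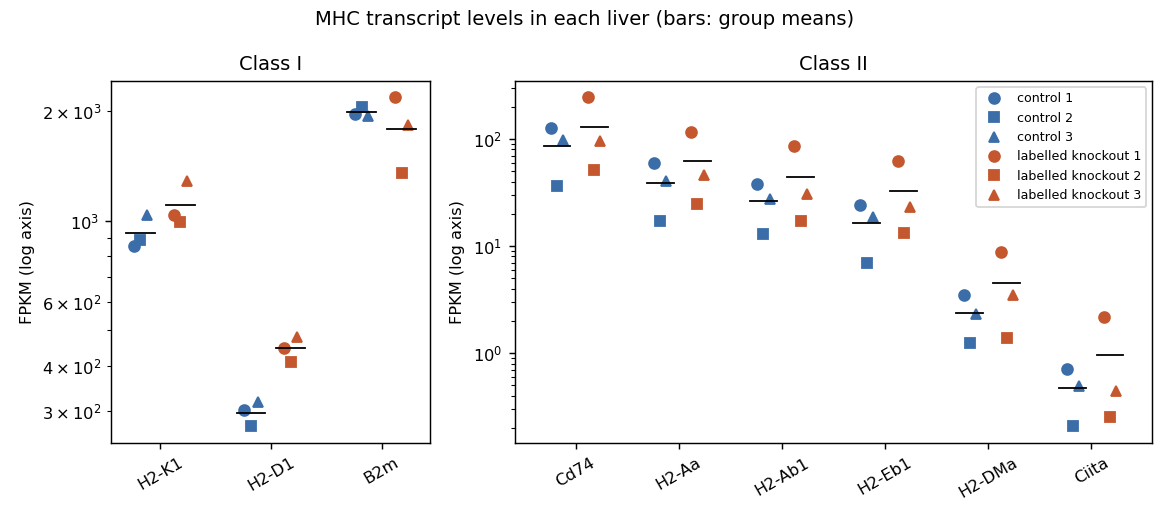
FPKM of each gene in each liver on a log axis, class I on the left and class II on the right, with group means as bars and replicate numbers as marker shapes. H2-D1 does not overlap between the groups (272 to 317 against 409.9 to 479.8 FPKM), and every class II gene is highest in knockout replicate 1 and lowest in control replicate 2.

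In mm10 (GENCODE M21) H2-K1 occupies bases 33996017 to 34000347 of chromosome 17 (minus strand), and H2-D1 bases 35262730 to 35267499 of it (plus strand). B2m lies on chromosome 2 from 122147686 to 122153083, inside the span of Patl2 on the other strand. Class I heavy chain genes are near-identical over long stretches, and the sources used here do not give how reads that match several genes were counted. The levels of single heavy chains are therefore uncertain. The entry named H2-L, after a close relative of H2-D1, held 29.7, 0.00327 and 70.1 FPKM (controls) against 58.6, 70.4 and 71.1 FPKM (labelled knockout). It has no position in the annotation used here, and which gene its reads came from was not tested. Added to H2-D1 it gave 330.2 ± 57.5 and 513 ± 35.7 FPKM, again with no overlap (272 to 387 against 480.3 to 551 FPKM).

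Sequences before the RefSeq starts of the 2 heavy chain genes are shown because these genes are close relatives whose levels per length stood in a different ratio in the groups. For H2-D1 the stretch lies inside the GENCODE gene span given above, in the 5′ UTR of a transcript that starts further upstream, so it is upstream of the RefSeq start only. As background, NF-kappa B and interferon response factors bind an enhancer of classical class I genes. Both genes hold a GGATTCC run, a core of kappa B sites, and, on the minus strand, GTGAAAC, a core of interferon response sites, here in capitals (RefSeq, GRCm38.p6, gene strand).
H2-K1, chr17:34000428-34000457, minus strand: gGGATTCCccatctccacaGTTTCACttct
H2-D1, chr17:35262924-35262953, plus strand: gGGATTCCccatctcctcaGTTTCACttct
Over these 30 bases the genes differ by 1 substitution, A17T, with positions counted from 1 at the 5′ end and the base of H2-K1 first. Counted from RefSeq starts, the stretch spans bases -110 to -81 of H2-K1 and -170 to -141 of H2-D1. H2-K1 has another RefSeq start, from which its GGATTCC lies at -123 to -117 in place of -109 to -103. H2-D1 also held ACNGATG, a core of the X1 box, at -106 to -100, which neither window of H2-K1 held. TGACGC, a core of the X2 box, lay at -101 to -96 in H2-D1, overlapping that match, and at -41 to -36 in H2-K1. GATTGG, a core of the Y box, lay on the minus strand at -53 to -48 in H2-D1. In H2-K1 it lay on the minus strand at -6 to -1 from the other start, from which TGACGC lies at -55 to -50. Among 32851 windows of 250 bases before RefSeq gene starts, 3.17% held GGATTCC and 2.12% held GTGAAAC on either strand.

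Class II levels per length followed the same order in all 6 livers: Cd74, H2-Aa, H2-Ab1, H2-Eb1, H2-DMa and Ciita, from high to low. The ranges of neighbours overlapped across livers. Each gene was highest in knockout replicate 1, next in control replicate 1, and lowest in control replicate 2. The level therefore went with the replicate number in both groups.

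H2-Aa and H2-Ab1 encode the alpha and beta chains of the I-A molecule. H2-Aa measured 59.4, 17.2 and 40.9 FPKM (controls) against 117, 24.8 and 46.2 FPKM (labelled knockout). H2-Ab1 stood at 38.0, 12.98 and 27.2 FPKM against 86.2, 17.0 and 30.3 FPKM. In both genes knockout replicate 1 was above every other liver and the remaining values were interleaved. The log2 changes were 0.55 (SE 0.65, limma adjusted p = 0.826) and 0.56 (SE 0.63, adjusted p = 0.814). The 95% intervals, -1.01 to 2.10 for H2-Aa and -0.96 to 2.08 for H2-Ab1, included 0.

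H2-Eb1 encodes the beta chain of the I-E molecule. It measured 23.97, 6.92 and 18.7 FPKM (controls) against 62.0, 13.2 and 22.99 FPKM (labelled knockout). Its means, 16.5 ± 8.73 and 32.8 ± 25.8 FPKM, differed by 1.98 times with overlapping values. Its log2 change was the largest of the 8 tested genes at 0.82 (SE 0.64, 95% interval -0.71 to 2.36, limma adjusted p = 0.714). H2-Ea-ps, the alpha chain partner that C57BL/6 mice are known to lack in working form, was listed at 0 in all 6 livers.

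Cd74 (chromosome 18, 60803848 to 60812652) measured 126, 36.1 and 96.9 FPKM (controls) against 244, 51.6 and 96.4 FPKM (labelled knockout) (log2 change 0.48, SE 0.67, limma adjusted p = 0.856). H2-DMa, a chain of the peptide loader, stood at 3.53, 1.24 and 2.32 FPKM against 8.85, 1.40 and 3.47 FPKM (0.55, SE 0.53, adjusted p = 0.770). Ciita (chromosome 16, 10480059 to 10528418) was at 0.718, 0.208 and 0.490 FPKM against 2.19, 0.251 and 0.440 FPKM. The high value of Ciita in knockout replicate 1 was 8.72 times the lowest in its group. If all its reads came from the longest annotated transcript, Ciita rested on about 19 to 224 reads a library.

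The mean log2 change over the 6 class II genes was 0.54, and over the 3 class I genes 0.22, both given without a test. The median was 0.55 over the 5 tested class II genes and 0.25 over class I, beside 0.04 over all tested genes. The class II mean was -0.014 without knockout replicate 1, 0.16 without control replicate 2, 0.84 without control replicate 1 and 1.01 without knockout replicate 2. The sign of the class II difference thus turned when knockout replicate 1 alone was left out. Without both libraries numbered 1 the class II mean was 0.28. Without knockout replicate 1 alone, H2-Aa (-0.039), H2-Ab1 (-0.068), Cd74 (-0.11) and Ciita (-0.12) were lower on the log2 scale, while H2-Eb1 and H2-DMa stayed higher.

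Same-numbered livers deviated together over all tested genes, so differences within a number were also examined, with the pairing inferred from these same values. For H2-Eb1 the liver labelled knockout was 2.59, 1.91 and 1.23 times its control at numbers 1, 2 and 3. For H2-Aa the ratios were 1.97, 1.44 and 1.13, for H2-Ab1 2.27, 1.31 and 1.11, and for H2-DMa 2.51, 1.13 and 1.49. Cd74 (1.94, 1.43 and 0.994) and Ciita (3.06, 1.21 and 0.897) were higher at numbers 1 and 2 only. So 4 of the 5 tested class II genes and 2 of the 3 class I genes were higher within all 3 numbers, where 25.1% of all tested genes were.

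**Figure D2:**
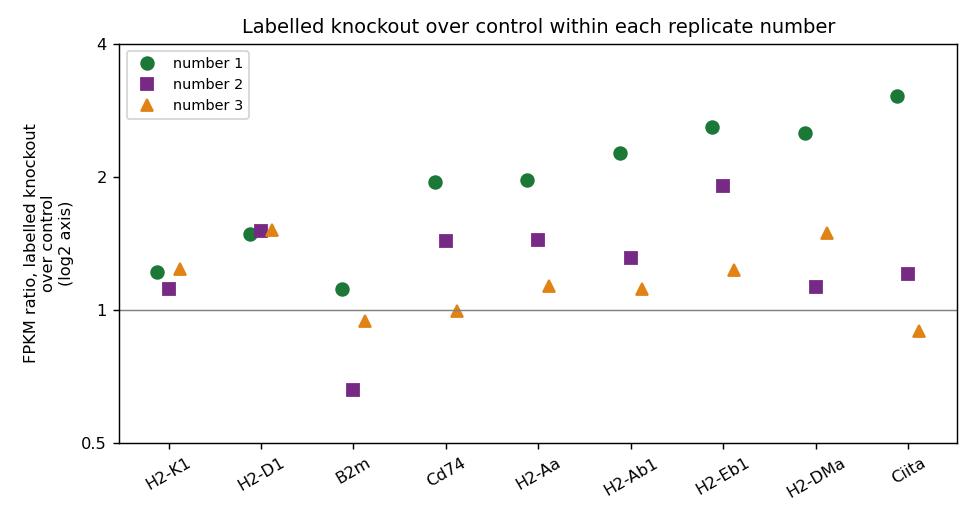
FPKM in the liver labelled knockout over FPKM in the control of the same replicate number, on a log2 axis, with a line at 1. The ratios of H2-D1 coincide near 1.50, those of class II genes are largest at number 1, and Cd74 and Ciita fall below 1 at number 3.

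With the number as a block in limma, the standard errors of class II genes were smaller, at 0.22 in place of 0.64 for H2-Eb1 and 0.18 in place of 0.65 for H2-Aa. The unadjusted p of H2-Eb1 was then 0.0146 and that of H2-Aa 0.0318, while H2-Ab1 (0.0569), H2-DMa (0.0574) and Cd74 (0.0737) were above 0.05. Higher at this level were 2 of the 5 class II and 1 of the 3 class I genes, against 10.1% of all tested genes, with 6.07% lower. The block adjusted p was 0.240 for H2-Eb1, 0.276 for H2-Aa and 0.445 for H2-K1, so 0 of the 8 genes passed. Among all tested genes 0.0274% passed with the block.

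**Figure D3:**
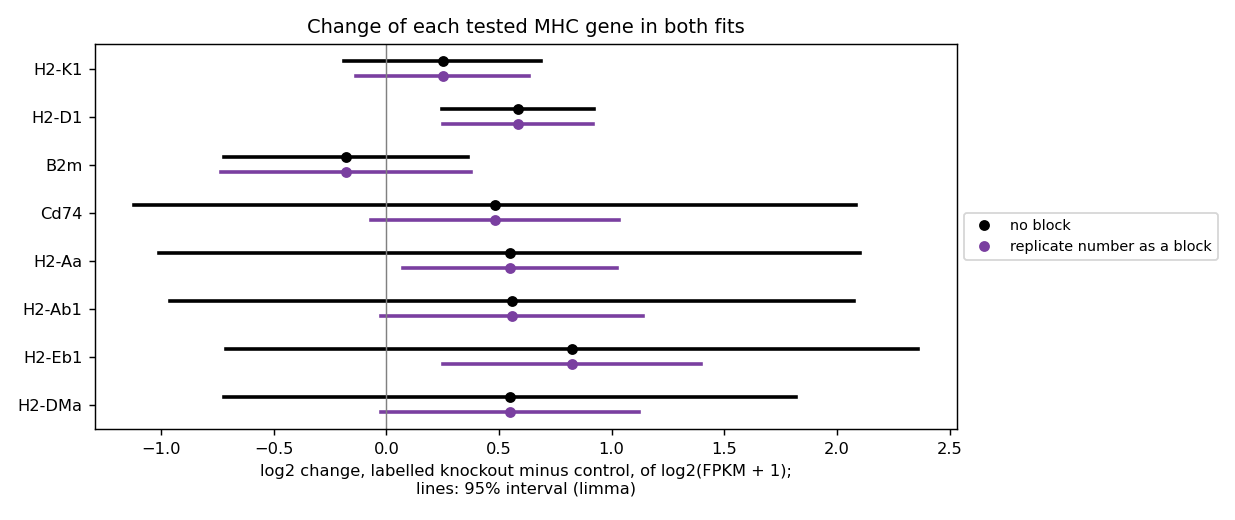
Log2 change of each of the 8 tested genes (labelled knockout minus control) with its 95% interval from limma, without a block in black and with the replicate number as a block in purple. Intervals of class II genes narrow with the block, and that of H2-D1 lies above 0 in both fits (0.25 to 0.92).

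The 15 ratios between class II transcripts varied by 1.14 to 1.97 times over the 6 livers. H2-Aa per H2-Ab1, the 2 chains of I-A, lay between 1.33 and 1.56 in all 6 livers. H2-Aa per Cd74 lay between 0.422 and 0.481. These ratios varied by 1.18 and 1.14 times over livers in which H2-Aa itself ran from 17.2 to 117 FPKM. The 5 ratios with Ciita varied most, by 1.75 to 1.97 times, and H2-Eb1 per H2-DMa and H2-DMa per Cd74 varied by 1.70 and 1.51 times, all with overlapping groups.

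Most ratios that parted the groups involved H2-Eb1. Per Cd74 it was at 0.191, 0.192 and 0.193 in the controls and 0.254, 0.256 and 0.239 in the livers labelled knockout. H2-Aa per H2-Eb1 was 2.48, 2.49 and 2.19 against 1.89, 1.88 and 2.01, and H2-Ab1 per H2-Eb1 was 1.59, 1.88 and 1.46 against 1.39, 1.28 and 1.32. In each of these 3 ratios the groups did not overlap, with more H2-Eb1 per partner in the livers labelled knockout. Of 15 ratios between the 6 class II genes, 4 did not overlap, these 3 and H2-Aa per Cd74. The ratios were chosen after their values were seen and have no background share.

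**Figure D4:**
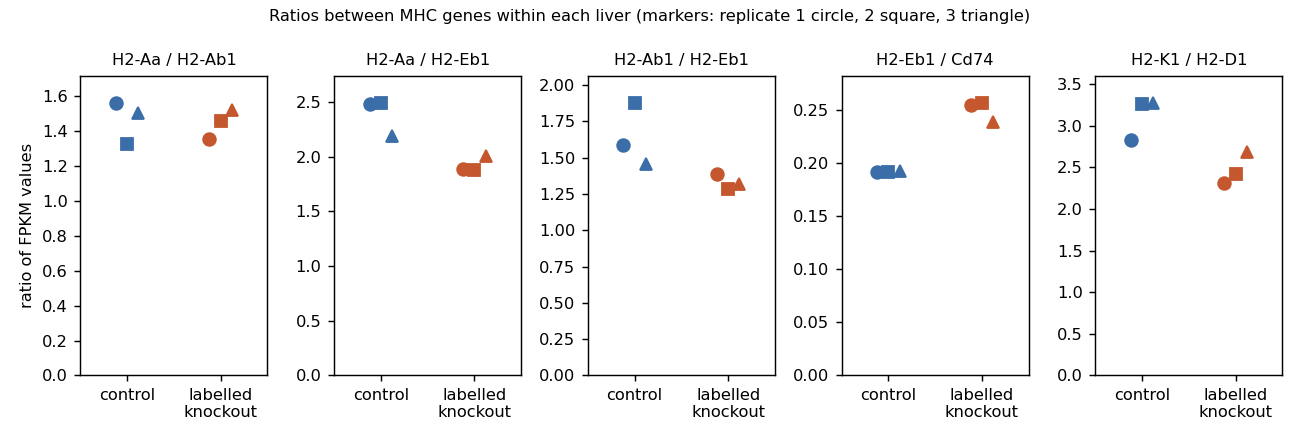
Ratios of FPKM values within each liver for 5 pairs of genes, with axes starting at 0. H2-Aa per H2-Ab1 overlaps between the groups, while the 3 ratios with H2-Eb1 and H2-K1 per H2-D1 do not.

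H2-Aa lies on chromosome 17 from 34282744 to 34287823 (minus strand), H2-Ab1 from 34257689 to 34269419, H2-Eb1 from 34305867 to 34316674 and H2-DMa from 34119541 to 34139101, the last 3 on the plus strand. The span of H2-Eb1 overlaps the antisense gene Gm20513, that of H2-DMa overlaps Brd2 and that of Ciita overlaps Dexi, each on the other strand. The sources used here do not say whether counting used strand, so reads of these pairs cannot be told apart. The log2 change of Brd2 was 0.38 (SE 0.17, limma adjusted p = 0.519) and that of Dexi -0.52 (SE 0.38, adjusted p = 0.689).

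The upstream sequences of H2-Aa and H2-Eb1 are shown because these chains moved together between livers. As background, CIITA acts through X and Y boxes close to the start of class II genes. Capitals mark GATTGG, the core of the Y box, and ACNGATG, a core of the X1 box, on either strand, in the last 200 bases before the start (RefSeq, GRCm38.p6, gene strand).
H2-Aa, chr17:34287824-34288023, minus strand: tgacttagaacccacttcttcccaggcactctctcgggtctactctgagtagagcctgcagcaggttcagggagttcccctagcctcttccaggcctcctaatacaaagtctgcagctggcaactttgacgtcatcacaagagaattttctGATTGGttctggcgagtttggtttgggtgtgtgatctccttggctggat
H2-Eb1, chr17:34305667-34305866, plus strand: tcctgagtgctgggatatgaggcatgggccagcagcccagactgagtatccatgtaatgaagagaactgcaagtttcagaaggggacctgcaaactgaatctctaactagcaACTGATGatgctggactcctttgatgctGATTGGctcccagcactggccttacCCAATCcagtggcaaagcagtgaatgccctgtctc
GATTGG lies at -49 to -44 in H2-Aa and at -60 to -55 in H2-Eb1, which holds it again on the minus strand at -35 to -30. ACNGATG lies at -88 to -82 in H2-Eb1 and, in H2-Aa, on the minus strand at -232 to -226, outside the stretch shown. Of all 32851 windows, 14.6% held GATTGG and 8.31% held ACNGATG. The letters TGACGC, a core of the X2 box, were in 6.12% of windows and in neither of these 2. Other forms of the X2 box were not searched. RefSeq windows were matched for 6 of the 9 genes, and a match of letters is a description, not a site.

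Several marker lists had their lowest sum in control replicate 2 and their highest in knockout replicate 1, as class II did. The 12 Kupffer cell and macrophage markers summed to 631, 139.9 and 544 FPKM in the controls and 865, 263 and 451 FPKM in the livers labelled knockout, with that order at both ends. All 12 had a mean of at least 1 FPKM, and the most abundant were Cd5l and the Kupffer cell lectin Clec4f. The 8 genes listed as monocyte markers, led by Lyz2 and Trem2, summed to 26.5 to 113 FPKM in controls. In livers labelled knockout they summed to 69.9 to 284 FPKM, highest in knockout replicate 1. Most of this sum was Lyz2, at 25.5 to 111 FPKM in controls and 66.4 to 249 FPKM in livers labelled knockout. Whether Lyz2 and Trem2 stood for monocytes or for macrophages here was not tested. For the 11 T and NK cell markers, led by Nkg7 and Cd3g, the sums were 1.70 to 6.41 against 3.34 to 13.7 FPKM. Under 1 FPKM on average were 3 of the 8 monocyte and 8 of the 11 T and NK cell markers, and none was at 0 in all livers. Among tested markers 9 of 12 for macrophages, 3 of 3 for monocytes and 3 of 3 for T and NK cells had higher means in the livers labelled knockout. So did 5 of 8 stellate, 1 of 1 B cell and 1 of 2 dendritic cell markers. Of sinusoidal endothelial markers only 2 of 8 were higher on the log2 scale, of hepatocyte markers 3 of 8 and of cholangiocyte markers 0 of 2.

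The sum of the 6 class II genes per sum of macrophage markers was 0.398, 0.534 and 0.343 in the controls and 0.601, 0.412 and 0.443 in the livers labelled knockout. It varied by 1.75 times, while the macrophage sum varied by 6.18 times, and the groups overlapped. Per monocyte markers the class II sum ran from 1.64 to 2.82 against 1.55 to 2.29, again with overlap. Per T and NK cell markers it varied by 1.83 times and per stellate markers by 1.85 times, while those sums varied by 8.05 and 5.00 times. Per dendritic cell markers it varied by 2.09 and per sinusoidal endothelial markers by 2.77 times. Per B cell markers it varied by 4.62 times, more than the 2.43 times of the B cell sum itself, and per cholangiocyte and hepatocyte markers by 8.43 and 16.2 times. In none of the 9 marker lists did this ratio part the groups. The part of these cells in the class II difference was not tested.

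The 10 B cell markers were low in all livers, with 9 under 1 FPKM on average and sums of 2.79 to 5.85 against 4.27 to 6.78 FPKM (Cd79b and Cd79a led). The 10 dendritic cell markers, led by Zbtb46 and Clec9a, summed to 2.94 to 6.92 against 5.05 to 11.6 FPKM, with 8 of 10 under 1 FPKM. Sinusoidal endothelial markers (Clec4g and Fcgr2b led) summed to 78.5 to 265 against 126 to 233 FPKM and stellate markers (Col3a1 and Rgs5) to 17.7 to 49.7 against 24.4 to 88.4 FPKM. Cholangiocyte markers, almost all Spp1, which macrophages also express, summed to 29.4 to 59.9 against 14.96 to 146 FPKM. In these 9 marker lists 0 genes passed the adjusted threshold. At an unadjusted p under 0.05, 2 hepatocyte markers were lower and 1 stellate marker was higher.

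**Figure D5:**
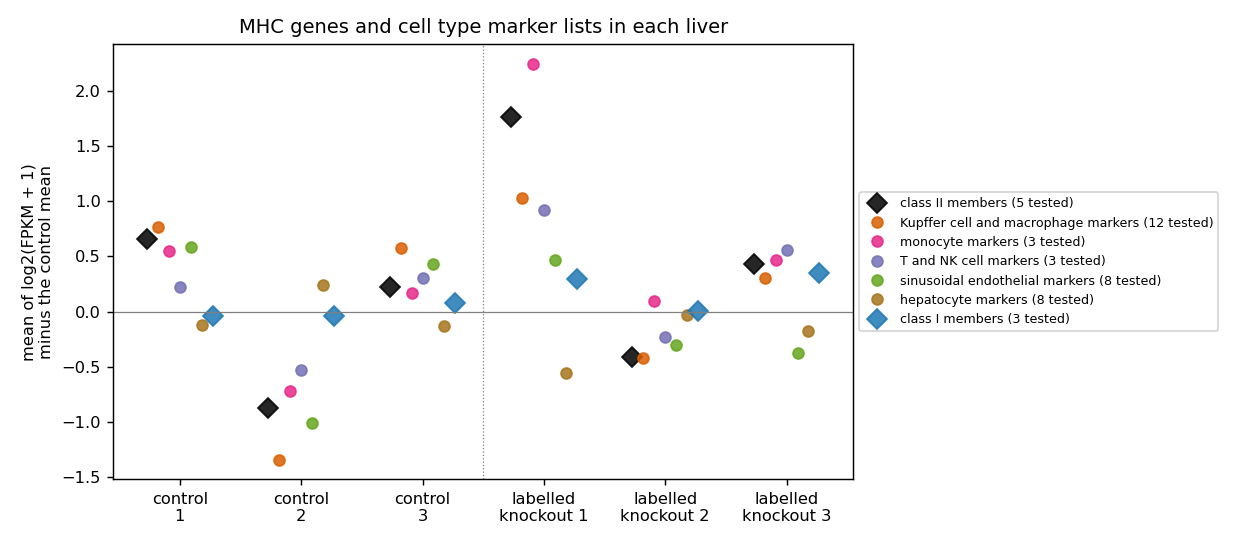
Mean of log2(FPKM + 1) over the tested genes of each list, relative to the control mean, in each liver, with MHC classes as diamonds and marker lists as circles. Class II runs from -0.88 in control replicate 2 to 1.76 in knockout replicate 1, and macrophage markers from -1.34 to 1.03 in the same livers, while class I stays within -0.043 to 0.35.

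The genes whose profile over the 6 livers was most like that of class II were Fcgr3, an Fc receptor of myeloid cells, Pld4, Cotl1, Lgals3, which encodes galectin-3, and Cyth4. Likeness was the root-mean-square difference of log2(FPKM + 1) from the mean profile of H2-Aa, H2-Ab1, H2-Eb1 and Cd74, over 11026 genes of at least 1 FPKM on average. It was 0.0902 for Fcgr3 and 0.158 for Cyth4, where a flat profile would give 0.868. Fcgr3 measured 9.97, 2.53 and 8.29 FPKM (controls) against 21.5, 4.11 and 9.10 FPKM (labelled knockout). For class I the nearest were Nhlrc2 (0.0493), Coro1b, Afg3l1, Ghitm and Iffo1 (0.0582), where a flat profile gives 0.159, so little variation was there to match.

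Other class I heavy chains had a median log2 change near that of all genes. Of 23 genes on this list 17 were tested, 10 with a higher and 7 with a lower mean, a median of 0.05 and 0 at an unadjusted p under 0.05. H2-Q10, which encodes a class I protein secreted by liver, measured 1265, 1399.8 and 1175 FPKM (controls) against 1343, 951 and 1018 FPKM (labelled knockout). It was the only heavy chain listed above H2-K1 in the controls, and its change was -0.23 (SE 0.20, limma adjusted p = 0.743). H2-T23, which encodes Qa-1, was at 205 ± 15.03 against 225 ± 35.0 FPKM. H2-K2 was at 13.7 ± 1.06 against 8.72 ± 4.27 FPKM (adjusted p = 0.537), and H2-Q7, of the Qa-2 proteins, at 25.5 ± 2.22 against 29.9 ± 1.01 FPKM with no overlap (adjusted p = 0.570).

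Most genes that make and load class I peptides were lower on average in the second group, short of the test. All 13 were tested, with 2 higher and 11 lower means, a median log2 change of -0.35 and 0 at an unadjusted p under 0.05. Of these, 5 were lower within all 3 replicate numbers, where 16.8% of all tested genes were. Relative to the control mean, the mean log2 level of the list was 0.19, -0.18 and -0.0016 in control replicates 1, 2 and 3. In knockout replicates 1, 2 and 3 it was 0.27, -0.69 and -0.40. Knockout replicate 1 thus lay above every control, and the lower group mean came from knockout replicates 2 and 3. Calr, a chaperone of the loading complex, was at 460 ± 55.4 against 358 ± 71.6 FPKM (limma adjusted p = 0.574), and Pdia3, its thiol oxidoreductase, at 203 ± 32.3 against 142 ± 37.5 FPKM (adjusted p = 0.506).

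Other class II chains and genes of class II loading had higher means where they were tested. Of the 11 genes found, 6 were tested, all with a higher mean and 0 at an unadjusted p under 0.05, with a median log2 change of 0.26. H2-DMb1, the partner of H2-DMa, measured 3.91, 1.13 and 2.81 FPKM (controls) against 8.39, 1.15 and 3.23 FPKM (labelled knockout), in the same order of livers as H2-DMa. The endosomal proteases Lgmn and Ctss, which cut the invariant chain, stood at 43.5 ± 20.3 against 53.1 ± 28.2 FPKM and 40.6 ± 24.3 against 53.2 ± 40.6 FPKM.

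Factors that act on MHC promoters had means on both sides of the controls. Of 8 tested, 5 had higher and 3 lower means, with a median log2 change of 0.06 and 0 at an unadjusted p under 0.05. Nlrc5, the class I counterpart of Ciita, was at 5.11 ± 0.548 against 5.09 ± 0.692 FPKM (log2 change -0.0082). Rfxank, a subunit of the RFX complex at the X box, was at 3.70 ± 0.798 against 4.65 ± 0.399 FPKM. The NF-Y subunit genes Nfyb and Nfyc, which serve the Y box, stood at 16.9 ± 3.82 against 11.7 ± 4.35 FPKM and 5.64 ± 0.350 against 6.01 ± 1.34 FPKM.

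Genes of interferon gamma signalling, the main inducer of Ciita, were in most cases lower on average in the second group, short of the test. Of 23, 21 were tested, with 6 higher and 15 lower means, a median log2 change of -0.23 and 0 at an unadjusted p under 0.05. Within all 3 replicate numbers 10 of the 21 were lower, where 16.8% of all tested genes were. Relative to the control mean, the mean log2 level of the list was 0.37, -0.45 and 0.081 in control replicates 1, 2 and 3. In knockout replicates 1, 2 and 3 it was 0.30, -0.78 and -0.074. Irf1, a transcription factor, measured 30.1, 27.1 and 27.2 FPKM (controls) against 25.5, 13.1 and 19.9 FPKM (labelled knockout) (log2 change -0.55, SE 0.23, limma adjusted p = 0.506). Iigp1, an interferon-inducible GTPase, was at 141 ± 12.6 against 101 ± 28.2 FPKM (-0.52, adjusted p = 0.528). For these 2 of the 21 the groups did not overlap, with the livers labelled knockout lower, as for 5.56% of all tested genes. Irgm1, another GTPase of this kind, was at 35.7 ± 9.26 against 28.2 ± 9.69 FPKM. Ifng itself was at or under 0.262 FPKM in all 6 livers.

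Costimulatory genes, which antigen-presenting cells show beside class II, were low, as were the inhibitory ligand genes Cd274 and Pdcd1lg2 on the same list. Of 7, 3 were tested, with 2 higher (Cd86 and Cd83) and 1 lower (Cd274, log2 change -0.037). Cd86 measured 2.74, 0.608 and 2.29 FPKM (controls) against 4.30, 0.703 and 1.55 FPKM (labelled knockout), and Cd83 at 2.46, 0.400 and 0.875 against 4.45, 1.12 and 1.68 FPKM (limma adjusted p = 0.714).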

How the data were processed

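Poly(A) RNA of 6 mouse liver samples (3 controls, 3 labelled knockout) was sequenced in strand-preserving, single-end libraries, per the labels' protocols. The authors deposited 1 table of FPKM values, a unit inferred from their steps and range and not named in it. Per the submitters' processing notes the build was mm10 and tools included STAR and DESeq2. The annotation and how multi-mapped and antisense reads were counted are not given here. For FPKM, limma 3.58.1 (R 4.3.3) with an intensity trend was fitted to log2(FPKM + 1) of the 10963 genes at 1 FPKM or more in at least 3 libraries. Benjamini-Hochberg adjustment ran over all of them at 0.05. The scale understates changes of low genes. The fit was tested on simulated data with independent noise and changes larger than those of the genes followed here. That test does not cover changes of their size.

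The 9 genes and all lists were chosen with earlier results of these data known. Named genes are the 9, per pathway list the 2 most abundant and the 2 of smallest p, per marker list the 2 most abundant, and the 5 nearest profiles for each class. H2-L, H2-Ea-ps, Nlrc5, Ifng, Alb, Brd2, Dexi, Epcam, Krt7, Krt19, Cftr, Cd274, Pdcd1lg2 and the ratios were chosen after their values were seen. No libraries held identical values.

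Read totals were estimated from genes with 1 transcript over 1500 bases and under 0.5 FPKM. With that estimate 60.4 to 63.8% of them came within 0.05 of whole reads (10% by chance). One read on 2000 bases is worth 0.0315 to 0.0376 FPKM. Deviations from the group mean correlated at 0.477, 0.279 and 0.283 for replicates numbered 1, 2 and 3 over tested genes, all above 0.1. Between unlike numbers the correlations ran from -0.384 to 0.120, and control 2 with knockout 3 was also above 0.1. The numbers were taken to pair the libraries from these same values, so the pairing has no separate check. The block is the alternative fit.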

Additional observations from a re-analysis of the deposited data

How the results depend on the processing

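Of 13 planned and 4 added alternatives (the latter chosen after seeing the data: leaving out both libraries of a number, and adding H2-L to H2-D1), H2-D1, H2-K1, H2-Eb1 and H2-DMa kept their direction in all 17. The log2 change of H2-D1 ran from 0.52 to 0.65 and its limma adjusted p from 0.0363 to 1.00. Sample quality weights called 1 of the members, H2-D1 (adjusted p 0.0363), and 537 genes over all tested, against 3. Over the libraries left out in turn, 0 members were called, all genes called ran from 2 to 153, the class II mean log2 change from -0.014 to 1.01 and the class I mean from 0.15 to 0.33. Without both libraries numbered 1, 2 or 3, 32, 5 and 5 genes were called. The class II mean was 0.19 with sample quality weights, in place of 0.54 without them, and 0.28 without both libraries numbered 1. With the replicate block it stayed at 0.54, since each number holds both groups and the block cannot move this mean. The block changed no call. Reversed values were 0.012 and 0.036 for B2m (without knockout replicate 2, without both libraries numbered 2), -0.046 for Cd74 without control replicate 2, -0.043 for Ciita with weights, and, without knockout replicate 1, -0.039 for H2-Aa, -0.068 for H2-Ab1, -0.11 for Cd74, -0.12 for Ciita and -0.014 for the class II mean. The cause was not tested. B2m reached -0.33 without knockout replicate 1, and without knockout replicate 2 H2-Aa reached 1.06, H2-Ab1 1.07 and Ciita 0.56. Genes at an unadjusted p under 0.05 numbered 1089 (695 higher, 394 lower), 1773 with the block, 2953 with weights, 1924, 662 and 702 without knockout replicates 1, 2 and 3, and 464 and 394 without both libraries numbered 2 or 3. Quantile normalization gave 526 higher and 656 lower and upper-quartile scaling 483 and 636. Ciita rested on about 19 to 224 reads a library, the lowest of the 9 genes in FPKM.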
